A study of Mus musculus with 6 samples.

Results

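Genes of the amyloid pathway and other genes tied to inherited neurodegenerative disease were examined in primary mouse brain cultures exposed to 1,25-dihydroxyvitamin D3 (1,25D), the form of vitamin D that acts as a hormone. The group was chosen by name, as 39 gene symbols, and a gene counted as measured where a row of the array carried that symbol alone. This held for 36 of the 39 symbols, among 19938 genes named in this way. Park2, Optn and Picalm had no such row and are not analysed here. The cultures came from brains of OF1 mouse embryos at embryonic day 17 and were differentiated in fetal calf serum into a mixture of neurons and glia. In serum-free medium without growth factors they then received 1,25D at 10 nM, or vehicle in the controls, which another label calls not treated. The labels name no other agent and no genetic change in either group, and give no length of exposure. There were 3 control arrays and 3 arrays of 1,25D-treated cultures, named as biological replicates 1 to 3 in each group, and nothing says whether arrays of equal number share an origin. The p-values thus measure the spread between these samples, which may be technical.

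Amyloid-beta is cut from the amyloid precursor protein App by beta-secretase (Bace1) and then by gamma-secretase, a membrane complex that contains a presenilin, nicastrin (Ncstn) and Aph1, while alpha-secretase activity, mainly Adam10, cuts within the peptide and prevents its formation. Tau, synuclein, TDP-43, expanded polyglutamine proteins and the prion protein accumulate in other neurodegenerative diseases, and many disease genes act in the sorting, autophagic or lysosomal handling of such proteins. In brain these genes are expressed by neurons and glia to different degrees. The deposited RNA values give transcript levels and say nothing of protein, cleavage or aggregation.

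The vitamin D receptor binds DNA with a retinoid X receptor at pairs of hexamers in the same direction with 3 bases between them, so the start regions of the measured genes were searched for such pairs. RefSeq promoter windows on GRCm38.p6 were matched by symbol for 29 of the 36 genes, and the 250 bases before each start were read in the direction of the gene. The hexamers allowed were the consensus AGGTCA, the variant with another purine at the start, GGGTCA, the variant with T at the third base, AGTTCA, and the variant with both changes, GGTTCA. Pairs of these in any combination, on either strand, were in 0 of the 29 genes and in 12 of 27025 genes of the whole table (0.0444%). A single hexamer of this set, on either strand, was in 15 of the 29 (51.7%) against 41.8% of all genes. Neither the absence of a pair from a short window nor the presence of a hexamer shows anything about the receptor. A GC box, GGGCGG on either strand, which is a binding motif of Sp1, was in 23 of the 29 genes (79.3%) against 35.4% of all genes with a window. A ratio of observed to expected CpG of at least 0.6 occurred in 22 of the 29 (75.9%) against 36.5%. The E-box CACGTG, part of the motif of the lysosomal regulator TFEB, was in 5 of the 29 (17.2%), namely Adam10, Psen2, Atxn2, Atxn3 and Sorl1, against 6.86%. The reference for these shares was every gene with a window, measured on the array or not, and not genes of like level. The shares of the GC box, CpG ratio and E-box are thus not shown to be particular to these disease genes. The 250 bases are shown for App, the precursor itself, and for the 3 genes to which the results below return, with each GC box in capitals.
App (chr16:85173708-85173957, minus strand): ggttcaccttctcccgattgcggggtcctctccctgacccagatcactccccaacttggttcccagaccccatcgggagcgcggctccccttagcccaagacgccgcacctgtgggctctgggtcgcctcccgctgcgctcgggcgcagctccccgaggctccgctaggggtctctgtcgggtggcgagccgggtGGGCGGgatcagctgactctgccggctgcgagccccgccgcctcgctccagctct
Grn (chr11:102430257-102430506, plus strand): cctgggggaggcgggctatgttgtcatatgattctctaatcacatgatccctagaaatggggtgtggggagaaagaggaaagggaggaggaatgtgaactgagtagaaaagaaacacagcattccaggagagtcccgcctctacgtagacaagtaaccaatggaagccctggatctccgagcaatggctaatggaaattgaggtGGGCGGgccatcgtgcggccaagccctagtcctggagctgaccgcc
Lrrk2 (chr15:91672974-91673223, plus strand): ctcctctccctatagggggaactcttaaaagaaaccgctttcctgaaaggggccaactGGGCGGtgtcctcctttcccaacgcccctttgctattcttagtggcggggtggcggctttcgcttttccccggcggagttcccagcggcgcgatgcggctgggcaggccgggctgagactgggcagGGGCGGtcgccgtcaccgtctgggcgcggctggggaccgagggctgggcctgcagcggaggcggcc
Atxn3 (chr12:101958244-101958493, minus strand): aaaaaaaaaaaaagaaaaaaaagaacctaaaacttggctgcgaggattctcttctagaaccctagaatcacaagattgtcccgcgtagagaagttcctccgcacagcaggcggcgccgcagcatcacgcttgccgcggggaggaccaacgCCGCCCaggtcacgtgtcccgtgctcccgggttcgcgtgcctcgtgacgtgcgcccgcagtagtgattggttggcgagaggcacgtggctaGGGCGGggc
App and Grn held 1 GC box each, and Lrrk2 and Atxn3 held 2 each. The GC content of these 4 stretches was 70.8% for App, 53.6% for Grn, 67.6% for Lrrk2 and 58.4% for Atxn3. Over the 36 windows of the measured genes the median GC content was 61.8%, against 52.4% over all 32851 windows.

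The 6 arrays were alike in brightness, with median intensities from 240.4 to 252.9. Grpr, the receptor for gastrin-releasing peptide and the gene with the largest called increase in the table, rose 9.42-fold in the treated cultures (adjusted p = 0.0041, limma with Benjamini-Hochberg adjustment over 19938 genes). The values are log2 of a linear RMA intensity, a scale on which levels of different genes cannot be set against each other because each has its own probes. RMA gives no detection call. All 36 genes lay above the lower quartile of genes on every array (6.69 to 6.86), and 23 lay above the upper quartile (9.24 to 9.31). Among the fixed markers of the labelled cell types, Map2 of neurons had a control mean of 10.94, Tubb3 of neurons 7.41, Gfap of astrocytes 11.61 and Aqp4 of astrocytes 12.72. Microglial Aif1 was at 6.03, and none of the 29 measured markers was listed at 0.

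None of the 36 genes passed the test, in either direction (limma, adjusted p under 0.05). Over all genes 5 passed, which is 0.0251%, all of them higher. With the replicate number as a block, 18 of all genes passed (0.0903%) and again 0 of the 36. The adjusted p was 1.00 for all 36 genes, and the lowest with the block was 0.86. At an unadjusted p under 0.05 there were 0 of the 36, against 295 of all genes (1.48%), and with the block 1 of the 36 (Atxn3), against 1152 (5.78%). The log2 differences, 1,25D minus control, ranged from -0.23 for Atxn3 to 0.19 for Grn, with 18 genes above 0 and 18 below. Their median was 0.00, beside 0.01 over all genes. The median size of the difference was 0.04, against 0.07 over all genes.

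The arrays put bounds, for each gene taken alone, on the size of a change in RNA of the whole mixed culture. The 95% interval of the log2 difference lay inside a 1.5-fold change in both directions for 35 of the 36 genes (97.2%), against 88.1% of all genes, and with the replicate block for all 36, against 95.9%. The exception was Sorl1, whose interval ran from a fold of 0.70 to 1.56. For the other 35 the most extreme bounds were a fold of 0.67, for Atxn3, and 1.43, for Mme. The standard errors without the block, which are those printed below, ran from 0.09 to 0.25 with a median of 0.13, against 0.12 over all genes. With the block the median was 0.08, against 0.09 over all genes. These intervals use the variance model that limma shares across genes, and 3 arrays a group limit their precision. With 3 arrays against 3, no two-sided exact permutation test of 1 gene can go below p = 0.1.

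**Figure D1:**
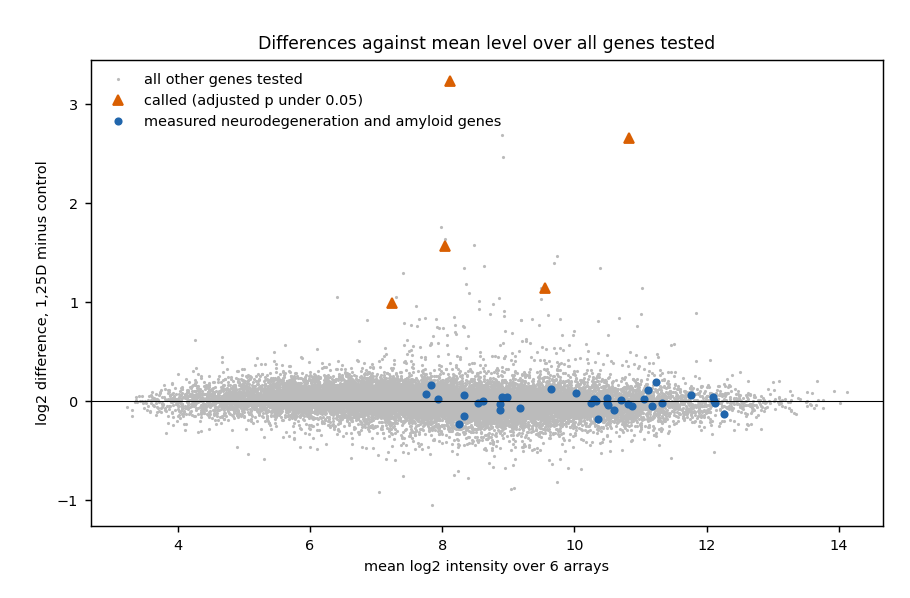
Log2 difference (1,25D minus control) against the mean log2 intensity over the 6 arrays, with each grey point a gene tested, orange triangles the 5 called genes and blue points the 36 measured genes of this group. The blue points lie between -0.23 and 0.19, and the called genes lie above them.

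The precursor family showed little difference between the groups. App, the source of amyloid-beta, had log2 intensities of 12.01, 12.17 and 12.16 in control replicates 1, 2 and 3 and of 12.05, 12.08 and 12.21 in the treated ones. The groups overlapped, and the difference was 0.00 ± 0.10 (SE), with a 95% interval from -0.23 to 0.23. Aplp2, a paralog that gives no amyloid-beta, was at 12.14 ± 0.11 in controls and 12.12 ± 0.06 in treated cultures (SD, n = 3 each), with differences of 0.05, -0.02 and -0.09 in replicate numbers 1, 2 and 3. Aplp1, the paralog found mainly in neurons, was at 9.98 ± 0.07 and 10.06 ± 0.24, with differences of 0.15, 0.21 and -0.12. Its treated arrays spread more widely than its controls. Apbb1, the adaptor Fe65 that binds the cytoplasmic tail of App, was at 8.88 ± 0.23 and 8.93 ± 0.03, with differences of -0.18, 0.01 and 0.30. In Apbb1 it was the controls that spread, and the 3 treated arrays lay within their range.

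Among the secretases, 0 of 5 passed, and the mean differences ran from -0.02 to 0.11. Bace1, the beta-secretase, was at 10.26 ± 0.18 in controls (SD, n = 3), and its differences were -0.01, 0.04 and -0.10 in replicate numbers 1 to 3. Adam10, the main alpha-secretase, was at 10.69 ± 0.10, with differences of -0.08, 0.08 and 0.04. Thus neither Bace1 nor Adam10 had a transcript difference in 1 direction in all 3 numbers. In the gamma-secretase complex, the presenilin Psen2 was at 8.96 ± 0.23 in controls, with differences of 0.04, 0.14 and -0.05. Ncstn, which receives the substrate, was at 10.51 ± 0.14, with differences of -0.05, 0.07 and -0.06. For both genes the groups overlapped. Aph1a, a scaffold of the complex, was the only secretase gene with a difference above 0 in every replicate number. Its log2 intensities were 11.19, 11.20 and 10.79 in controls and 11.25, 11.27 and 11.00 in treated cultures. The groups overlapped because replicate 3 was low in both, and the mean difference was 0.11 ± 0.14 (SE). A further row of the array for Aph1a gave 0.10.

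Of the 2 proteases that break down amyloid-beta, neither passed. Ide, insulin-degrading enzyme, had log2 intensities of 10.57, 10.69 and 10.66 in controls and of 10.56, 10.64 and 10.45 in treated cultures. Each treated array was below its control of the same number, by a mean difference of -0.09 ± 0.10 (SE), and the groups overlapped. Mme, the membrane protease neprilysin, was at 9.59 ± 0.13 in controls and 9.71 ± 0.33 in treated cultures (SD, n = 3 each). Its differences were -0.17, 0.09 and 0.46, the last being the largest difference of any of the 36 genes in any single replicate number. No gene of the group reached a 1.5-fold difference in any replicate number.

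Tau, the microtubule-binding protein encoded by Mapt, was at 7.72 ± 0.04 in controls and 7.79 ± 0.15 in treated cultures (SD, n = 3 each), with differences of 0.08, 0.22 and -0.09. Gsk3b, a kinase that phosphorylates tau, was at 10.44 ± 0.32 and 10.26 ± 0.08. Its differences were 0.06, -0.18 and -0.44, so the sign was not shared and replicate 3 contributed most. Without control replicate 1 its mean difference was -0.36, at an unadjusted p of 0.025 that did not hold after adjustment. Cdk5, a neuronal tau kinase, was at 10.53 ± 0.18 in controls, with differences of -0.13, -0.05 and 0.06. Cdk5r1 encodes p35, an activating partner of Cdk5. Its log2 intensities were 7.63, 7.93 and 7.68 in controls and 7.77, 7.98 and 7.97 in treated cultures. Each treated array was above the control of its number, by 0.15, 0.05 and 0.29, while the groups overlapped and the mean difference of 0.16 ± 0.12 (SE) did not pass.

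In the genes of synucleins and Parkinson disease, 0 of 6 measured members passed. Sncb, beta-synuclein, was at 7.92 ± 0.14 in controls (SD, n = 3), with differences of 0.21, 0.06 and -0.21. Sncg, gamma-synuclein, was at 8.30 ± 0.04, with differences of 0.10, 0.19 and -0.09. Both had their lowest difference in replicate number 3. Lrrk2, a large kinase with dominant Parkinson disease mutations, was the only gene of the 36 whose groups did not overlap (2.78%, against 4.15% of all genes, of which 1.52% were lower and 2.63% higher). Its log2 intensities were 8.34, 8.38 and 8.49 in controls and 8.29, 8.19 and 8.27 in treated cultures, so all 3 treated arrays were below all controls. The mean difference was -0.15 ± 0.09 (SE), an unadjusted p of 0.14 in limma. A dimmer row for Lrrk2 went the other way, with 5.97, 5.42 and 5.95 in controls, 5.96, 5.88 and 6.19 in treated cultures and a difference of 0.23. With the rows averaged, the difference was 0.04 and the groups overlapped, so the separation rests on the choice of the row.

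The mitochondrial and sorting genes of Parkinson disease had no shared direction. Pink1, a kinase that marks damaged mitochondria, was at 10.48 ± 0.21 in controls (SD, n = 3), with differences of -0.07, 0.13 and 0.03. Park7, the redox-sensitive protein DJ-1, was at 11.34 ± 0.29, with differences of -0.12, -0.39 and 0.44. Its differences in replicate numbers 2 and 3 were thus of similar size and opposite sign, and the mean difference was -0.02 ± 0.17 (SE). Vps35, a core subunit of the retromer that returns cargo from endosomes, was at 10.89 ± 0.11, with differences of 0.03, 0.13 and -0.29.

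**Figure D2:**
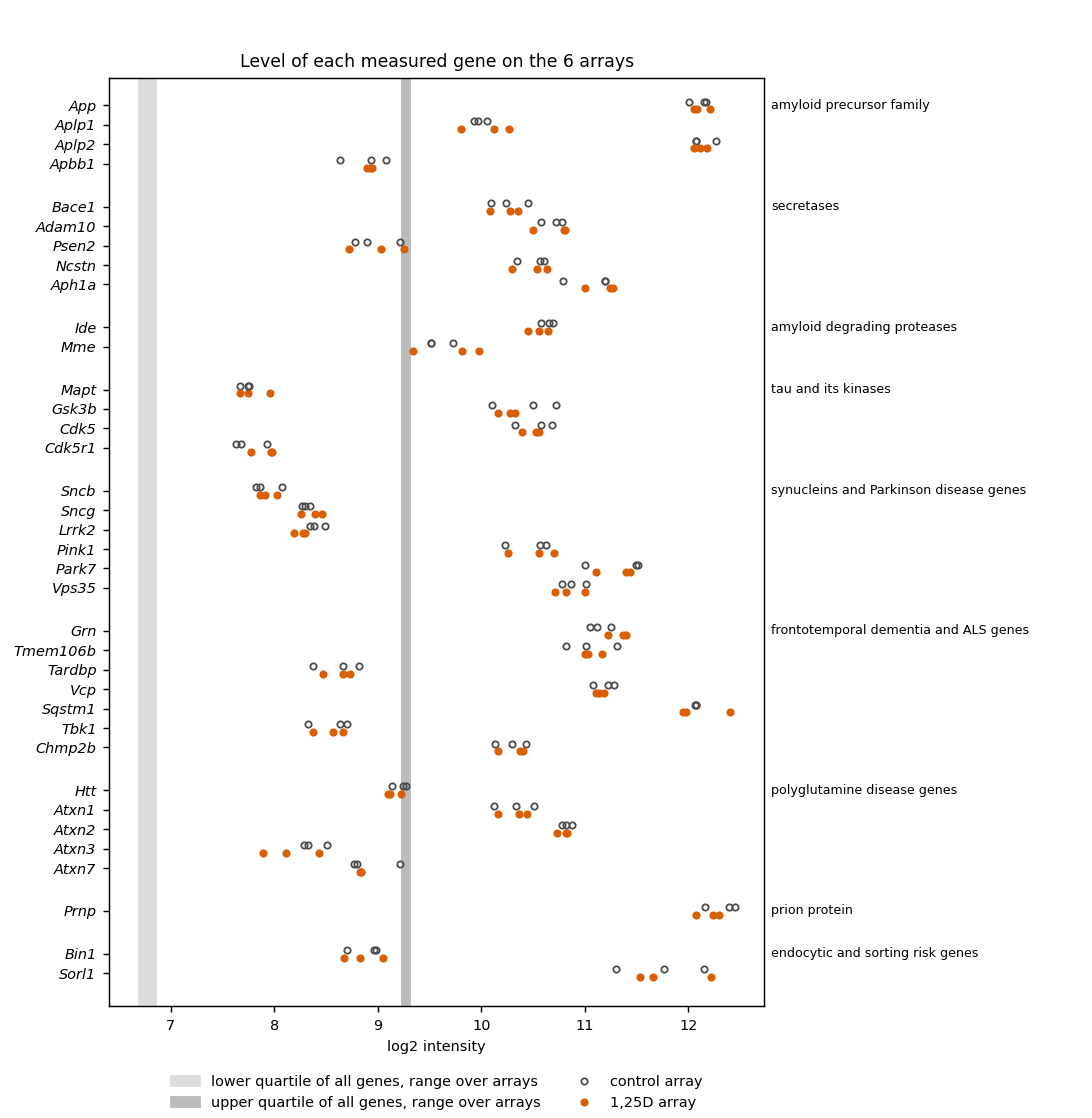
Log2 intensity (horizontal axis) of the 36 measured genes on each control array (open circles) and each 1,25D array (filled circles), grouped by disease pathway, with grey bands for the range over arrays of the lower and upper quartile of all genes. Lrrk2 is the gene whose open and filled circles do not overlap, and the range of Sorl1 is wide in both groups.

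Among genes of frontotemporal dementia and amyotrophic lateral sclerosis (ALS), 0 of 7 measured members passed. Grn, which encodes the lysosomal and secreted protein progranulin, had the lowest unadjusted p of the 36 at 0.10, which was 0.055 when replicate numbers were blocked. Its log2 intensities were 11.05, 11.26 and 11.12 in controls and 11.37, 11.40 and 11.22 in treated cultures. Treated replicate 3 was below control replicate 2, so the groups overlapped, but within each number the treated array was higher, by 0.32, 0.14 and 0.11. The mean difference was 0.19 ± 0.10 (SE), a fold of 1.14 with a 95% interval from 0.97 to 1.35. Tmem106b, a lysosomal membrane protein that modifies risk in progranulin deficiency, was at 11.05 ± 0.25 in controls (SD, n = 3), with differences of 0.18, 0.16 and -0.28. It did not share the single direction of Grn.

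Tardbp, the RNA-binding protein TDP-43, was at 8.62 ± 0.23 in controls, with differences of -0.08, -0.00 and 0.10. Vcp, an ATPase that extracts proteins for degradation, was at 11.19 ± 0.10, with differences of -0.10, -0.09 and 0.03. Sqstm1, the autophagy receptor p62, was at 12.06, 12.08 and 12.08 in controls and at 12.41, 11.98 and 11.95 in treated cultures. Its controls were almost equal and a single treated array, replicate 1, stood above the rest, with differences of 0.35, -0.10 and -0.13. Tbk1, a kinase that phosphorylates autophagy receptors, was at 8.55 ± 0.20, with differences of 0.03, 0.05 and -0.14. Chmp2b, a subunit of the endosomal sorting complex ESCRT-III, was at 10.29 ± 0.15 (SD, n = 3 for each mean), with differences of 0.03, -0.03 and 0.08. For Sqstm1, Tbk1 and Chmp2b the mean difference was smaller than the SD of either group except for the nearly equal Sqstm1 controls.

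The 5 polyglutamine disease genes all had mean differences below 0, with a median of -0.07, and 0 of the 5 passed. Over all genes 53.0% were above 0. After quantile normalisation 4 of the 5 were below 0, and between 3 and 5 when single arrays were left out, with 3 without control replicate 3. Atxn3, a deubiquitinase, had the largest difference of the group, with log2 intensities of 8.32, 8.28 and 8.51 in controls and 8.11, 7.89 and 8.43 in treated cultures. The treated array was lower in each number, with differences of -0.22, -0.40 and -0.08, while treated replicate 3 lay above control replicates 1 and 2. The mean difference was -0.23 ± 0.15 (SE), and limma gave an unadjusted p of 0.17, or 0.039 once replicate numbers were blocked. After adjustment the blocked p was 0.86. Htt, huntingtin, was at 9.14, 9.25 and 9.27 in controls and 9.10, 9.22 and 9.12 in treated cultures. Its difference of -0.07 ± 0.09 (SE) was below 0 in each number. Atxn7, a subunit of the SAGA transcription complex, was at 8.93 ± 0.25 in controls and 8.83 ± 0.01 in treated cultures (SD, n = 3 each), with differences of 0.03, 0.07 and -0.38. Control replicate 3 was its single high array. Atxn1, a transcriptional regulator, was at 10.32 ± 0.19, with differences of 0.03, -0.14 and 0.11. Atxn2, an RNA-binding protein, was at 10.82 ± 0.05, with differences of 0.00, -0.05 and -0.05.

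The value of Atxn2 in replicate number 1 was identical in the control and the treated array. Such identical values occurred for 1094 genes (5.49%) between these 2 arrays and for at most 19 genes between any other 2 of the 6 arrays. Atxn2 was the only one of the 36 among them, so its difference there is fixed at 0.

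Prnp, the cellular prion protein, was at 12.16, 12.39 and 12.45 in controls and 12.07, 12.30 and 12.24 in treated cultures. Each treated array was lower than the control of its number, by a mean difference of -0.13 ± 0.12 (SE), and the groups overlapped. Of the genes that sort App and shape risk of late-onset Alzheimer disease, Bin1, a membrane-bending adaptor, was at 8.88 ± 0.15 in controls (SD, n = 3), with differences of 0.08, 0.13 and -0.31. Sorl1, a receptor that diverts App to the retromer pathway, varied most between replicate numbers. Its log2 intensities were 11.76, 12.15 and 11.31 in controls and 11.53, 12.22 and 11.66 in treated cultures, so replicate 2 was the highest in both groups. The mean difference of 0.06 ± 0.25 (SE) had the largest error of the 36 in the fit without the block. With the block its error was 0.12, below those of Park7 (0.15) and Mme (0.13).

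Counted by replicate number, 8 of the 36 genes had the same sign in all 3 numbers (22.2%, against 25.8% of all genes). Higher in all 3 were Aph1a, Cdk5r1 and Grn, and lower in all 3 were Ide, Lrrk2, Htt, Atxn3 and Prnp. The shares of all genes were 14.8% for higher and 11.0% for lower. In replicate numbers 1, 2 and 3, 19, 20 and 15 of the 36 genes were above 0, with a median difference of 0.03, 0.05 and -0.07. The medians over all genes were 0.00, 0.03 and -0.01.

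**Figure D3:**
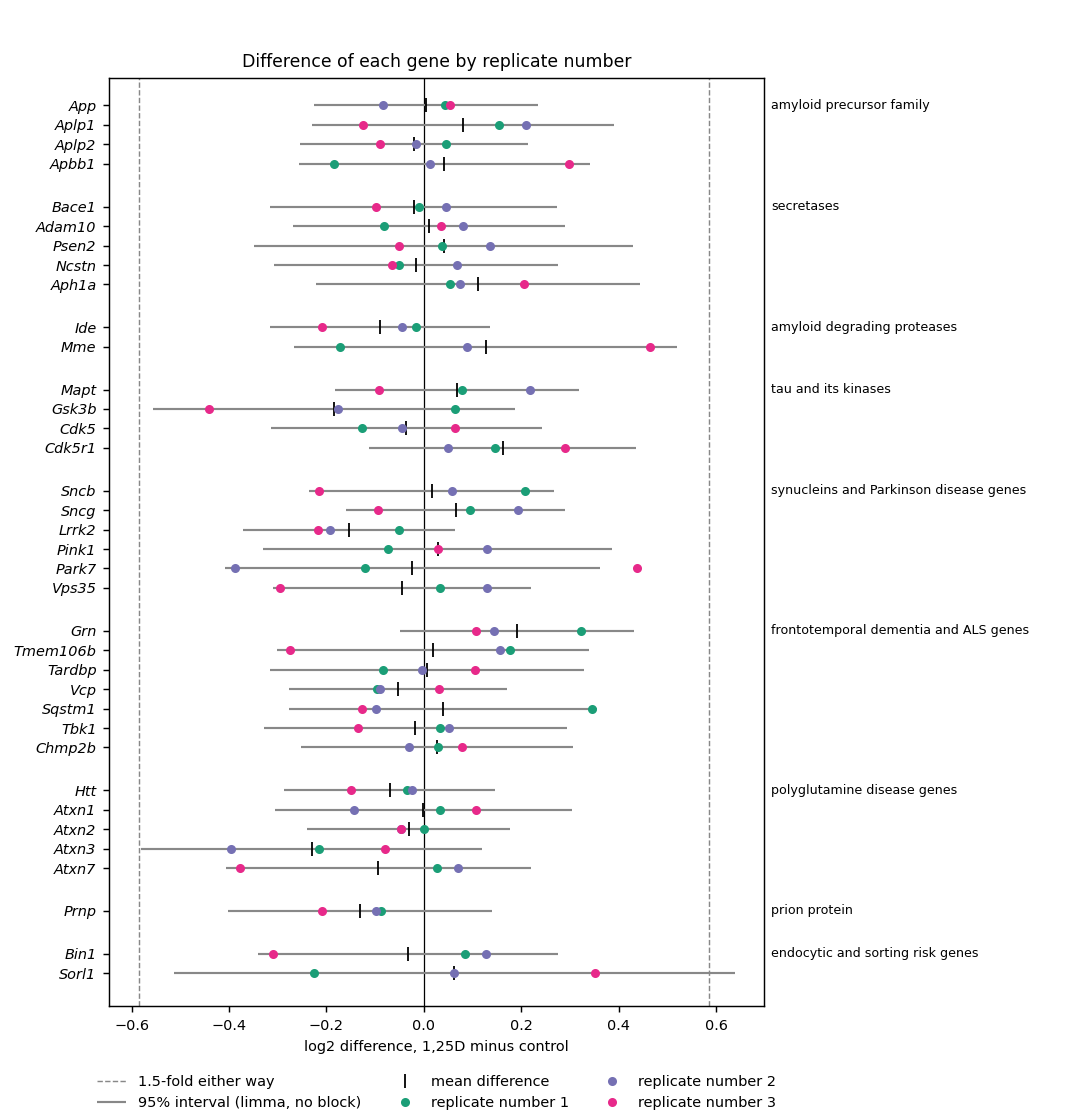
Log2 difference, 1,25D minus control (horizontal axis), of each measured gene in replicate numbers 1, 2 and 3 (coloured points), with the mean (black tick), its 95% interval from limma without the block (grey line) and dashed lines at a 1.5-fold change in either direction. The 95% interval of Sorl1 alone crosses a dashed line, and every interval includes 0.

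Levels differed more between replicate numbers than between the groups for most of these genes. The range of the 3 replicate-number means was larger than the difference between the groups for 33 of the 36 genes (91.7%), as it was for 90.6% of all genes. A range over 3 values is the wider measure by construction, so the share is read against that of all genes. The exceptions were Grn, Lrrk2 and Sncg. Sorl1 had the widest range, at 0.70, followed by Psen2 at 0.48, and the median range was 0.24, as over all genes. Deviations from the group mean had the same sign in the control and treated arrays of replicate number 1 for 26 of the 36 genes, of number 2 for 26 and of number 3 for 23. For arrays of unequal number the count ran from 11 to 17. These counts are not independent of those for equal numbers, since deviations cancel within a group.

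**Figure D4:**
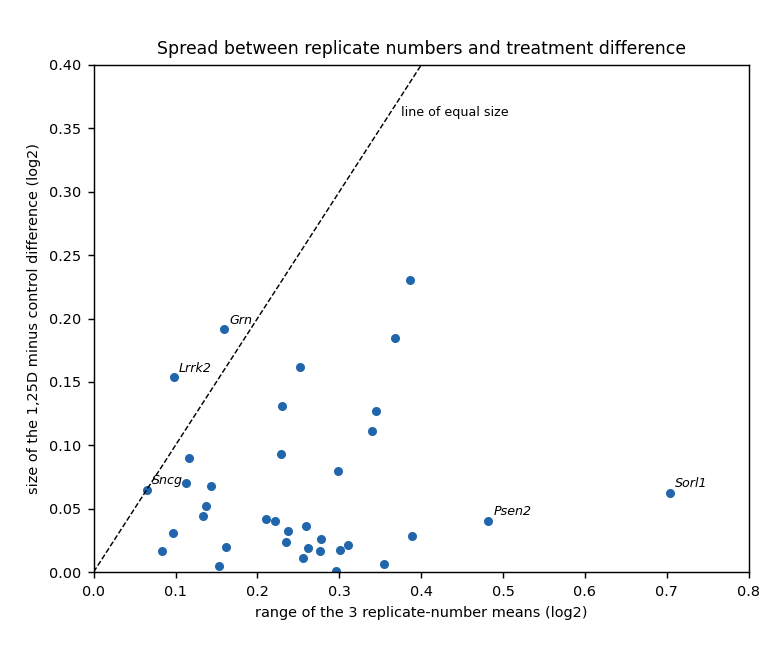
Size of the log2 difference between 1,25D and control (vertical axis) against the range of the 3 replicate-number means in log2 (horizontal axis), with a point for each of the 36 measured genes and a dashed line where both are equal. Grn, Lrrk2 and Sncg lie above the line, Sncg by a margin too small to see, and Sorl1 and Psen2 lie farthest to the right.

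Other genes of the same pathways were counted in the same fit. Of 108 listed genes 100 were measured, of which 0 rose and 0 fell in limma without or with the block, 43 were above 0 and 57 below, where 53.0% of all genes were above 0. At an unadjusted p under 0.05 there were 0, against 1.48% of all genes, and 7 of the 100 with the block, near the 5.78% of all genes. The groups did not overlap for 4 of the 100, against 4.15% of all genes. These were Csnk1e, Fig4, Ptk2b and Rin3, named for their separation after their values were seen. In each of the 6 lists the 2 genes with the smallest p are given. Among 19 genes of amyloid processing, Apbb2, an adaptor of App, had a log2 difference of -0.19 ± 0.11 and Adam9, a membrane metalloprotease that can also cut App at the alpha site, of -0.20 ± 0.14 (SE). Adam9 was lower in each replicate number, with differences of -0.19, -0.08 and -0.34, and its unadjusted p with the block was 0.047 (adjusted p = 0.86, limma). This was the largest of the 7 unadjusted p-values under 0.05 with the block. The others were those of Cltb (0.017), Snap91 (0.019), Abca7 (0.031), Uchl1 (0.035), Atxn10 (0.038) and Csnk1e (0.039, all limma). Among 19 measured tau kinases, phosphatases and related genes, the casein kinase Csnk1e had a difference of 0.20 ± 0.09 and the kinase Mark4 of -0.14 ± 0.11 (SE). Neither list held a gene near the adjusted threshold. Among 14 genes of Parkinson disease, Uchl1, a neuronal ubiquitin hydrolase, had a difference of -0.22 ± 0.13 and the kinase Lrrk1 of -0.18 ± 0.15 (SE). Among 16 genes of frontotemporal dementia and ALS, Taf15, an RNA-binding protein, had a difference of 0.20 ± 0.14 and Fig4, a phosphoinositide phosphatase, of -0.14 ± 0.09 (SE). The difference of Taf15 came mostly from replicate number 3 (0.55, against 0.01 and 0.04 in numbers 1 and 2). Most of the 10 genes in the list set beside the polyglutamine genes, Atxn10 among them, are not polyglutamine disease genes. Those that are, Atn1, Tbp and Cacna1a, had differences of -0.02, -0.11 and 0.02. In this list Atxn10 had a difference of -0.24 ± 0.12 and the TATA-binding protein Tbp of -0.11 ± 0.09 (SE). Of the 10, 8 were below 0 (6 after quantile normalisation). Among 22 genes of endocytosis and Alzheimer risk, Snap91, a clathrin adaptor of nerve endings, had a difference of 0.33 ± 0.18 and the clathrin light chain Cltb of -0.27 ± 0.15 (SE). The smallest adjusted p of all 100 genes was 1.00 in limma without the block.

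Markers of neurons, glia and other brain cells were set beside these values, and 0 of 29 measured markers passed in limma, without or with the block. With the block, the unadjusted p in limma was under 0.05 for Map2 (0.036), Rbfox3 (0.0044), Aldh1l1 (0.0145), Col1a1 (0.010) and Pdgfrb (0.00074). Over all genes the share at this level was 5.78%. The groups did not overlap for Rbfox3, Cx3cr1 and Col1a1, where the share over all genes was 4.15%. The summed intensity of 5 neuron markers was 2416 to 3584 in controls and 1803 to 3117 in treated cultures, and the sums overlapped. This sum and those below are of linear intensities and are weighted to the markers of highest intensity. In neurons that was Map2, at a log2 control mean of 10.94, with Syn1 next at 8.58. All 5 neuron markers had mean differences below 0, with a median of -0.18, also after quantile normalisation and median centring. Rbfox3, the nuclear protein NeuN, had the largest, -0.34 ± 0.14 (SE), with groups that did not overlap (unadjusted p = 0.036, or 0.0044 with the block, adjusted p = 1.00 and 0.50 in limma). Map2 and Syn1 were also lower in every replicate number, at -0.29 ± 0.25 and -0.18 ± 0.14 (SE). Tubb3 and Snap25 were not, with mean differences of -0.05 and -0.03 and differences of 0.47 and 0.24 in replicate number 3. The 5 astrocyte markers summed to 13353 to 21744 in controls and 13821 to 21575 in treated cultures, and all 5 differences were below 0, with a median of -0.08. Aldh1l1 had the largest, -0.27 ± 0.15 (SE), with differences of -0.39, -0.23 and -0.19 in replicate numbers 1, 2 and 3. Aqp4, at -0.23 ± 0.27 (SE), was also lower in every number. Gfap, Slc1a3 and S100b were not, with mean differences of -0.08, -0.01 and -0.06. The part of neuron and astrocyte content in the differences of the 36 genes was not tested.

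The sum over 5 microglia markers was 591 to 690 in controls and 650 to 756 in treated cultures, an overlap. All 5 had mean differences above 0 (4 after quantile normalisation), with a median of 0.12. Cx3cr1, a chemokine receptor of microglia, had a difference of 0.19 ± 0.09 (SE), with groups that did not overlap and a higher value in every replicate number. Aif1, Csf1r, Tyrobp and Itgam were at 0.12, 0.10, 0.12 and 0.02, and the sign of Tyrobp and Itgam changed between replicate numbers. Aif1 and Itgam, at control means of 6.03 and 6.14, lay below the lower quartile of genes. Microglia express Grn strongly, and their part in its difference was not tested. The sum over 5 markers of meningeal fibroblasts and pericytes was 1513 to 1611 in controls and 1666 to 2113 in treated cultures, with no overlap. Among these, Pdgfrb and Col1a1, the brightest of the list, had differences of 0.48 ± 0.20 and 0.42 ± 0.18 (SE, adjusted p = 1.00 for both). Both were higher in every replicate number. The unadjusted p of Pdgfrb was 0.047, or 0.00074 with the block (adjusted p = 0.23, limma), and its groups overlapped. That of Col1a1 was 0.053, or 0.010 with the block (adjusted p = 0.67, limma), and its groups did not overlap. Lum, Rgs5 and Col1a2 were at 0.05, 0.02 and -0.04, and the list median was 0.05. Lum and Rgs5, at control means of 4.68 and 5.99, also lay below the lower quartile of genes. The part of these cells in the results was not tested. Endothelial markers summed to 1262 to 2140 and 1364 to 1838, and 4 measured oligodendrocyte markers to 827 to 966 and 804 to 953, in controls and treated cultures. In RNA of a whole culture, fewer cells of a type and less RNA per cell cannot be told apart.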

How the data were processed

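Total RNA of 6 cultures was labelled with biotin as cDNA and hybridised to Affymetrix arrays, per the labels' protocols. The authors deposited intensity values per transcript cluster, made with RMA using Affymetrix Expression Console, as the submitters' processing notes state. Software versions and any filter were not given in the sources used here. These deposited intensities are linear, so log2 was taken. Of 35556 rows, 21789 carried 1 symbol in GEO's platform annotation, 1621 several and 12146 none here. The brightest row stood for a gene where 2 or more existed (999 genes, 3 of the 36 here). limma 3.58.1 in R 4.3.3 (lmFit, eBayes) compared 1,25D with control over 19938 genes without a block, with Benjamini-Hochberg adjustment and a threshold of 0.05. The fit was tested on simulated data that held no replicate effect, so that test does not cover arrays that share one. Deviations of equally numbered arrays from their group means correlated across genes at 0.51, 0.65 and 0.46 for numbers 1, 2 and 3. For unequal numbers the correlations ran from -0.51 to -0.01, and they are not independent of the former since deviations cancel within a group. The numbers were therefore taken to pair the arrays, on the strength of the values alone since no label says so, and the fit with the replicate block stands beside the other where it changed a count. Alternatives were quantile normalisation, median centring, log2(intensity + 16), leaving out the dimmest 25% of genes, averaging rows, a variance trend and leaving out each array. All members were named, and of other pathway genes the 2 with the smallest p in each list. The members and lists were chosen with earlier results of these data known. Arrays have no read depth, and their number limits the precision.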

Additional observations from a re-analysis of the deposited data

How the results depend on the processing

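No member passed at an adjusted p under 0.05 in any of the 21 alternative settings, and the lowest adjusted p was 0.28 (Atxn3, replicate block without replicate 3 in both groups). The signs of 10 of the 36 held in every setting. The count of all genes passing was 5 as reported, 18 with the replicate block and 22 with it and without genes of identical replicate 1 values; leaving out 1 array gave 0 to 2. Without replicate 1, 2 or 3 in both groups it was 1, 1 and 0, and 40, 3 and 45 with the block. Members at an unadjusted p under 0.05 numbered 0 as reported, 1 with the replicate block (Atxn3), 1 when genes of identical replicate 1 values were also left out, 0 to 1 without 1 array, and 0 to 3 without a replicate in both groups, the 3 being Park7, Grn and Atxn3 with the block and without replicate 3. Members with groups that do not overlap numbered 1 as reported, 0 with a gene's rows averaged, 3 to 6 without 1 array, and 9, 5 and 12 without replicate 1, 2 and 3 in both groups, where fewer arrays make separation more frequent. The replicate block changed no call of a member or pathway gene. The omission of a replicate in both groups and of identical values was chosen after seeing the data. Dim rows, such as the dimmer one of Lrrk2, are compressed by RMA and limit what a small difference shows.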
